A study of Homo sapiens with 3 samples.

Results

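Peaks of wild-type MECOM that lay wholly upstream of a symbol-named gene, with a gap of 1000 bp or less to its start, were examined. They were chosen by the annotation alone, without regard to their height, and numbered 323 of the 3462 peaks in the list, at 321 genes. MECOM, also called EVI1, is a zinc finger transcription factor that marks a group of aggressive myeloid leukaemias. Chromatin immunoprecipitation with sequencing (ChIP-seq) used HEK293T cells, a line from human embryonic kidney, and an antibody against the AM tag, a short peptide joined to the protein. The cells had been given the pMYS-IG vector carrying wild-type (WT) MECOM, the same vector carrying its R750W form, or the vector alone, with 1 library in each of the 3 groups. Only the list that carries the WT name was used; the R750W and vector libraries were not analysed here. The protein came from an introduced vector, and peak values stand without replicates. The peak list holds no expression values, so the labelled cell type was not checked against markers.

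A promoter is the stretch of DNA just before a gene's start, where transcription factors and RNA polymerase gather. Many human promoters are rich in CpG dinucleotides, and pairs of genes read away from each other often share one. MECOM holds a pair of zinc finger domains. The first is known to bind GATA-like DNA, which is the basis of its proposed competition with GATA2, and the second an ETS-like site. A peak upstream of a gene shows where fragments taken with the tag antibody exceeded local background, not which gene the protein acts on.

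Promoter sequences of the highest members are shown first, because they let the base content and the motifs described further on be read directly. Each runs 5′ to 3′ along the gene's strand, from 250 bases before to 50 after a RefSeq start on GRCh38.p14, and capitals mark the bases under the peak. The first 5 are the highest members whose peak covered 100 or more bases of the window. The last, chosen after the values were seen, is the highest such member whose window holds the GATA-like core AAGATAA. SNHG21, a small nucleolar RNA host gene, has its window at chr15:82750314-82750613 on the plus strand. That of SYNCRIP, an RNA-binding protein, is at chr6:85643821-85644120 on the minus strand, and that of ARHGAP21, a GTPase-activating protein, at chr10:24723838-24724137 on the minus strand. The antisense RNA gene JARID2-AS1 has its window at chr6:15248647-15248946 on the minus strand, and RALGAPB, a subunit of a GTPase-activating complex for Ral, at chr20:38472593-38472892 on the plus strand. The window of ZBED5-AS1 is at chr11:10857967-10858266 on the plus strand.
SNHG21: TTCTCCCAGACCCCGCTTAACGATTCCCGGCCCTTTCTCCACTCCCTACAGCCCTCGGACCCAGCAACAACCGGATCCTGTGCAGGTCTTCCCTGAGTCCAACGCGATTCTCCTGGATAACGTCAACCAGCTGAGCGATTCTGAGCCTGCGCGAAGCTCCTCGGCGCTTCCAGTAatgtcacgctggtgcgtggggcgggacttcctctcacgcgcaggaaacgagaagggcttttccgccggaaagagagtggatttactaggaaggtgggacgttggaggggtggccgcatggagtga
SYNCRIP: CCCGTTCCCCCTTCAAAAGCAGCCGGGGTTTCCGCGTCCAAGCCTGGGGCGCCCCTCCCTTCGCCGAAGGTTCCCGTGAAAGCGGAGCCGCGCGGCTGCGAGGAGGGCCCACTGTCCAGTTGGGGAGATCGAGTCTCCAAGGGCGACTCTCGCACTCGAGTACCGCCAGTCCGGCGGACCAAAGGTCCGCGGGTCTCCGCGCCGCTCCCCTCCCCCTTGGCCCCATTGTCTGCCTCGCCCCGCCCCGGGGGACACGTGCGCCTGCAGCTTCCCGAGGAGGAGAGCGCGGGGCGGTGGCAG
ARHGAP21: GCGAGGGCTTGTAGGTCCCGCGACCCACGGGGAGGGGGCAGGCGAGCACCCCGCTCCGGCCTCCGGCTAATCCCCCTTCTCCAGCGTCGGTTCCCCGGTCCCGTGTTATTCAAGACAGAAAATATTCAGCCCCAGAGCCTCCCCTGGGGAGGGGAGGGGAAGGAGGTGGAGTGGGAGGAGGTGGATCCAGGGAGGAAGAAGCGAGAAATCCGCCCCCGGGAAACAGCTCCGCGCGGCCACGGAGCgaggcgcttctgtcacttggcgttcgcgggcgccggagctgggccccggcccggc
JARID2-AS1: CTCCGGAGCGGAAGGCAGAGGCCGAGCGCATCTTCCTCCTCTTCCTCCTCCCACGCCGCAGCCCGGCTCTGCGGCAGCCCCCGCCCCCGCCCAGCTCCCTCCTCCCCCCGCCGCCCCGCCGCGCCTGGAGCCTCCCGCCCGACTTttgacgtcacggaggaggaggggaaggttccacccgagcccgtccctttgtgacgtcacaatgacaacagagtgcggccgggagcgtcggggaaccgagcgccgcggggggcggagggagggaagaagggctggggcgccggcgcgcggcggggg
RALGAPB: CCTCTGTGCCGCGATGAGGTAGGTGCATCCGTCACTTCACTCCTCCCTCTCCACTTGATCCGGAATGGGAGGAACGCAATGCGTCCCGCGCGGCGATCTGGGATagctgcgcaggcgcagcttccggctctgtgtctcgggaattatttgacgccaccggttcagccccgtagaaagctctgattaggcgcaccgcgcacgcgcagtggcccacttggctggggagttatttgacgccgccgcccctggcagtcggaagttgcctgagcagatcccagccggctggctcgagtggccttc
ZBED5-AS1: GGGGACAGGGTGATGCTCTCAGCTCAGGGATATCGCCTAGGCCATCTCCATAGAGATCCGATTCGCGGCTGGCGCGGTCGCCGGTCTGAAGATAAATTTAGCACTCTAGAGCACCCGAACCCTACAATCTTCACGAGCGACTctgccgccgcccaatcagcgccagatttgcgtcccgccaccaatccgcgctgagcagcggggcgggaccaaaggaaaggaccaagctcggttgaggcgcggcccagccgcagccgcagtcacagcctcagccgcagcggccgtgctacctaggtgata

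The peaks covered 175, 300, 245, 145, 104 and 142 bases of these windows, in the order printed. All of SYNCRIP's window lay under its peak, so by the RefSeq start that peak spanned the start rather than lying upstream of it. The windows held 59.7, 71.7, 69.3, 75, 63.3 and 62.7% G and C, with 23 to 37 CpG dinucleotides each. Under the peaks, GGGCGG or its complement CCGCCC, the box bound by SP and KLF factors, was found at SYNCRIP, ARHGAP21 and JARID2-AS1. The E-box CACGTG lay under the peak of SYNCRIP, and AAGATAA lay under that of ZBED5-AS1, which spanned the start of ZBED5, a gene read the other way.

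Upstream peaks crowded close to the gene start. The gap ranged from 1 to 994 bp with a median of 237 bp (quartiles 120.5 and 498), and 170 of 323 (52.6%, exact binomial 95% interval 47.0 to 58.2) lay within 250 bp. The number of upstream peaks at named genes was 63 at gaps of 1 to 100 bp and 107 at 101 to 250 bp. It was 72 at 251 to 500 bp, 59 at 501 to 750 bp and 22 at 751 to 1000 bp. Per 1000 bp of distance that is 630 peaks up to 100 bp, 713 at 101 to 250 bp, where the density was highest, and 288, 236 and 88 in the next bins up to the limit. From 1001 to 2000 bp it was 42. Members made up 9.45% (8.49 to 10.5) of the 3419 annotated peaks and 55.7% (51.5 to 59.8) of the 580 upstream peaks at named genes. A further 71 upstream peaks within the limit belonged to genes without a symbol and were not counted.

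**Figure D1:**
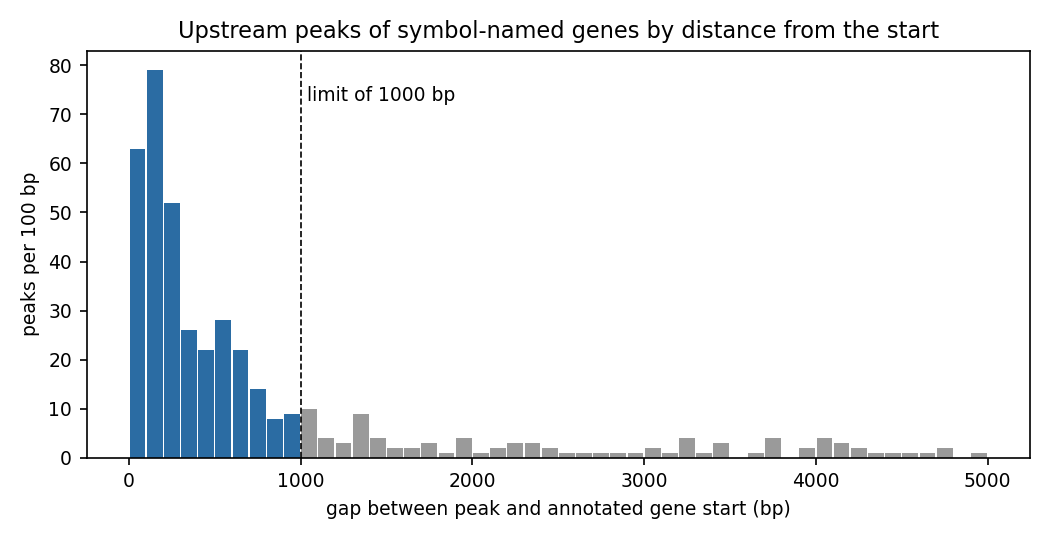
Number of upstream peaks at symbol-named genes in each 100 bp of gap between the peak and the gene start (bp); blue bars are the 323 members, grey bars lie beyond the limit of 1000 bp, drawn as a dashed line. Counts were 63 in the first 100 bp, 79 in the next and 9 in the last 100 bp inside the limit, against 10 in the first 100 bp outside it.

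The members nearest the start were those of FBXO36 (1 bp), an F-box protein, INTS6L-AS1 (6 bp), CREBRF (10 bp), a regulator of the CREB3 factor, ME1 (11 bp), the cytosolic malic enzyme, and SYNCRIP (11 bp). Enrichment is the authors' value for each peak, fragments plus 1 over the fragments expected from local background plus 1. It was 4.85, 5.93, 4.91, 4.47 and 7.81-fold at these genes. Just inside the limit lay OBI1 (994 bp, 5.25-fold), the second peak of INTS6L-AS1 (981 bp, 5.67-fold) and EGR1 (974 bp, 5.49-fold). Just outside it lay SNORA24B (1003 bp, 3.33-fold), MAGI2 (1018 bp, 5.93-fold) and HSP90AA1 (1031 bp, 6.30-fold). The folds on both sides of the limit overlap.

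Checked against a second annotation, most members kept their place. RefSeq promoter windows were matched for 258 members, and 214 of these peaks (82.9%, 77.8 to 87.3) lay wholly upstream, within 1000 bp, of the nearest RefSeq start of the same gene. Another 27 lay upstream but farther, 13 spanned a RefSeq start and 4 lay inside the gene. The spanning ones, examples chosen after their values were seen, included SYNCRIP, ADAMTS3 (6.67-fold), a procollagen protease, FBXO11 (5.98-fold), an F-box protein, and TRMT5 (5.56-fold), a tRNA methyltransferase. Only 150 of the 258 (58.1%, 51.9 to 64.2) had starts within 100 bp of each other in both annotations. Peaks reached into the window of 300 bases for 101 of 258 members (39.1%, 33.2 to 45.4), and covered 100 or more of its bases for 63. For most members, therefore, the window printed from RefSeq lies beside the peak and not under it. RASA1 is an example: the annotation put its peak 24 bp from the start, and RefSeq 1073 bp.

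Many upstream peaks also lay at another gene. Of the 314 members on chromosomes with RefSeq windows, 111 (35.4%, 30.1 to 40.9) had the start of a gene read the opposite way within 1000 bp of the peak. The share was much the same, 34.1% (30.0 to 38.3), for peaks spanning the start of a named gene. It was 26.0% for peaks just inside one and 23.9% over all annotated peaks on those chromosomes. In 89 of the 111 members (28.3%, 23.4 to 33.7 of the 314) the genes were read away from each other. A median of 206 bp lay between their starts (quartiles 101 and 428 bp, range 4 to 1356). The named gene's start was the deposited one and the other gene's that of RefSeq, so this distance mixes the annotations. The other gene was protein-coding in 67 of the 89 and a long non-coding RNA in 22; both genes were protein-coding in 43. Only 9 of these peaks lay between the starts. In 24 pairs the peak spanned the start of the other gene, and in 56 it lay inside that gene, a median of 88.5 bp past its start (range 2 to 638). A peak called upstream of 1 gene was thus most often at or just past the start of its neighbour in these pairs. By RefSeq spans, 159 of all 323 members (49.2%, 43.6 to 54.8) overlapped another protein-coding or long non-coding gene, and 111 (34.4%) a protein-coding one. Such overlaps were counted for members alone, so it cannot be said whether other peaks of the list differ. Starts missing from the windows used would raise the 111, so it is a lower limit. The 89 and their split rest on the nearest such start alone, so a missing start could move them either way.

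**Figure D2:**
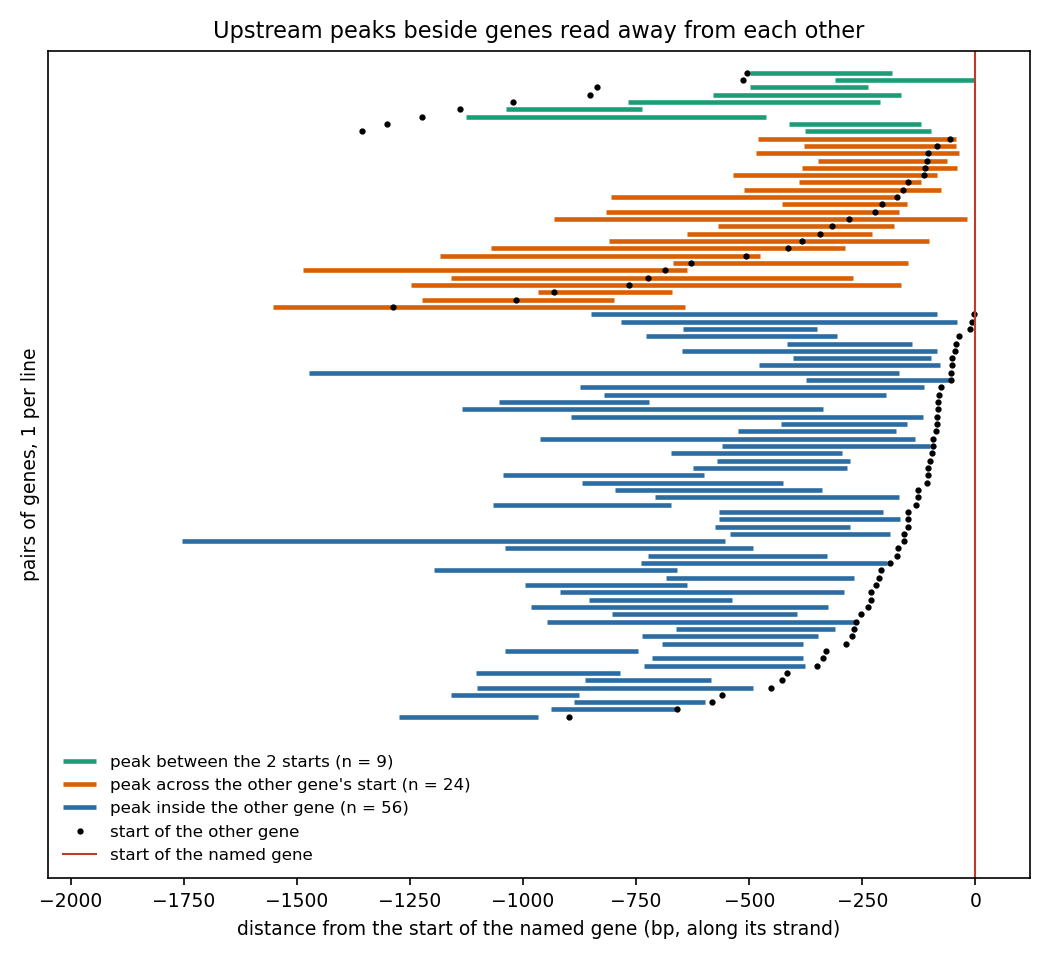
The 89 upstream peaks beside a gene read away from the named gene, 1 pair per line; the x axis is distance in bp from the start of the named gene (red line), coloured bars are peaks and black dots the start of the other gene. In 9 pairs the peak lies between the starts (green), in 24 across the other start (orange) and in 56 inside the other gene (blue). Starts of the named genes are the deposited ones, and those of the other genes are from RefSeq.

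Pairs named here other than MBD4 are examples chosen after their values were seen. The MBD4 peak, the highest of the members, lay 84 bp upstream of MBD4, a DNA glycosylase that repairs T and U mispaired with G at CpG sites. It also lay inside IFT122, a component of intraflagellar transport, 39 bp past its RefSeq start. The deposited MBD4 start was 45 bp from that IFT122 start. RefSeq puts the MBD4 start 231 bp from the deposited one and 315 bp from the peak. The peak of ERG28, which functions in sterol synthesis, spanned the start of TTLL5, a tubulin-modifying enzyme (7.12-fold, exact Poisson 95% interval 4.62 to 10.5). The peak of H2AC15 (7.12-fold) lay 60 bp past the start of H2BC15, a core histone gene like H2AC15 itself. JARID2-AS1 (7.18-fold, 5.09 to 9.87) shared its peak with the start of JARID2, which helps recruit Polycomb repressive complex 2. SIRT2, a NAD-dependent deacetylase, had a peak (5.82-fold) across the start of NFKBIB, an inhibitor of NF-kappa-B. The 9 peaks between starts included those of CD3EAP, an RNA polymerase I subunit, with PPP1R13L (6.82-fold), and of LEF1-AS1 with LEF1, a nuclear partner of beta-catenin (6.11-fold). They also included FBXO36 with TRIP12 and TLCD1 with NEK8 (5.82-fold). RefSeq put the named gene's start farther from these peaks than the deposited annotation did. Its gaps were 1172 bp for CD3EAP, 5059 for LEF1-AS1, 202 for FBXO36 and 1168 for TLCD1.

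Members with such a neighbour had a median enrichment of 4.86-fold (quartiles 4.08 and 5.55, n = 89), against 4.71 (4.10 and 5.58, n = 225) for the other members on those chromosomes. Their peaks were 409 bp wide at the median, against 364 bp. The share with a gene read away, 28.3%, stood beside 19.2% (16.0 to 22.9, n = 525) of peaks spanning the start of a named gene and 17.3% (14.7 to 20.2, n = 761) of peaks inside one within 1000 bp of its start. Over all annotated peaks on those chromosomes it was 14.8% (13.6 to 16.1, n = 3310). An upstream peak lies on the side of the start where such a neighbour is found, so the place of the peak alone favours this order, and its part was not tested. Regions of 1 library are not replicates, and no test was made between these classes.

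The highest members were those of MBD4, RASA1 and PROX1-AS1, the only 3 at 10-fold or more. MBD4 reached 10.9-fold (7.52 to 15.3), with 31 fragments where background predicted 1.93, on chromosome 3 from 129440263 to 129440826 (hg38), and ranked 13th of all 3462 peaks. RASA1, a GTPase-activating protein that switches RAS off, reached 10.0-fold (6.67 to 14.5) from 26 fragments, on chromosome 5 from 87267480 to 87267864. PROX1-AS1, antisense to the lymphatic regulator PROX1, reached 10.0-fold (6.82 to 14.2), on chromosome 1 from 213988004 to 213988591. These 3 intervals overlap nearly throughout, so their order is not settled by the counts. By RefSeq the PROX1-AS1 peak lay 1851 bp from the nearest start of that gene and the RASA1 peak 1073 bp, both beyond the limit of 1000 bp. Intervals take the background as known and hold only counting error of the ChIP library; reads copied by PCR are not independent molecules.

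Next came UVRAG-DT, a divergent transcript of the autophagy gene UVRAG (9.50-fold, 6.33 to 13.8), and ETFB, the beta subunit of the electron transfer flavoprotein (9.15-fold, 6.04 to 13.3). PRDX6, an antioxidant peroxiredoxin, had a peak 205 bp upstream (8.93-fold, 6.0 to 12.9). ETV6, an ETS-family repressor rearranged in leukaemia, had its peak at a gap of 695 bp (8.59-fold, 5.88 to 12.1). SBNO1, a helicase-related protein, followed at 8.12-fold from 36 fragments, in a peak that lay inside the antisense gene SBNO1-AS1. SNHG21 reached 8.09-fold and EBI3, a subunit of the cytokines IL-27 and IL-35, 7.92-fold. EBI3 also had the widest member, of 1661 bp; TNFSF9, the ligand of 4-1BB (1634 bp, 6.39-fold), and RBM26-AS1 (1305 bp, 6.71-fold) came after it.

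BRIX1 and RCL1, which both act in ribosome assembly, had 7.92-fold and 7.68-fold peaks, and that of BRIX1 lay inside the checkpoint gene RAD1. SYNCRIP reached 7.81-fold, LINC00910, a non-coding RNA, 7.42-fold, and RCOR1, the scaffold of the LSD1 corepressor complex, 7.41-fold. At the other end were STC2, a secreted glycoprotein (2.87-fold, 1.88 to 4.22), LMO7-AS1 (2.80), UBE2D3-AS1 (2.71), KIAA1328 (2.63) and MIR1302-3 (2.59). RefSeq put the STC2 peak 1487 bp from the nearest start of that gene. The lowest member stood over a background of 16 fragments and the highest over 1.93.

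**Figure D3:**
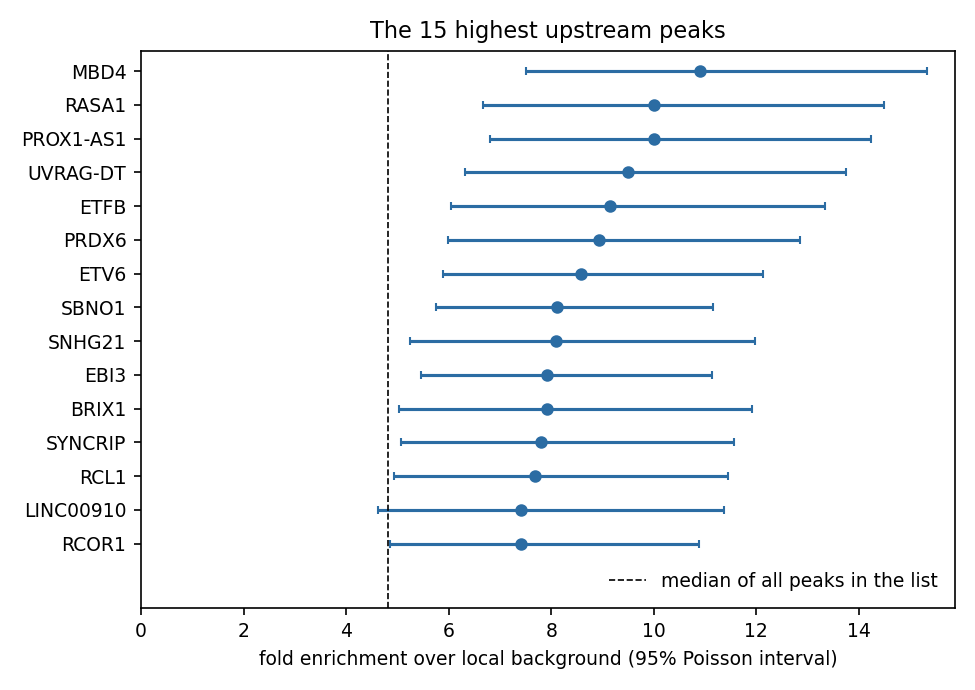
Fold enrichment over local background (x axis) of the 15 highest upstream peaks, with exact Poisson 95% intervals as bars and the median of the list, 4.82-fold, as a dashed line. The intervals overlap each other, and that of LINC00910 reaches below the median of the list.

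Most members could not be ranked against each other. A median of 18 fragments lay at a member (quartiles 15 and 22, range 10 to 56) over a median background of 2.96, which gives 4.79-fold with an interval from 2.94 to 7.43. Of the members, 163 had an interval that reached that of MBD4, and 159 lay wholly below it. An interval wholly above the list's median of 4.82-fold was found for 17 of 323 members (5.26%), against 5.38% of all peaks with a fragment count, so members stood apart in height no more often than the list. Across the 323 members, fold was lower where background was higher (Spearman correlation −0.54), a relation that the ratio itself brings in. It had little relation to gap (−0.10), width (0.16) or, over 258 windows, to GC content (−0.02); all points share 1 library.

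Height did not set upstream peaks apart. Their median enrichment was 4.79-fold (quartiles 4.10 and 5.58, n = 323), beside 4.79 (3.97 and 5.68, n = 536) for peaks spanning a start and 4.70 (3.95 and 5.56, n = 792) for those just inside one. It was 4.82 (4.05 and 5.69, n = 3139) over all other peaks of the list. Upstream peaks were narrower than spanning ones, with a median of 375 bp (quartiles 307 and 519.5), against 518 bp (374.75 and 740) for spanning peaks, 396 bp just inside and 419 bp over all others. A wide peak near a start is more likely to reach it and leave the upstream class, so the class definition and width are linked. Within the members, the median was 5.05-fold at gaps up to 100 bp, 4.92 at 101 to 250 bp, and 4.64 to 4.74 beyond, with quartiles that overlap.

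**Figure D4:**
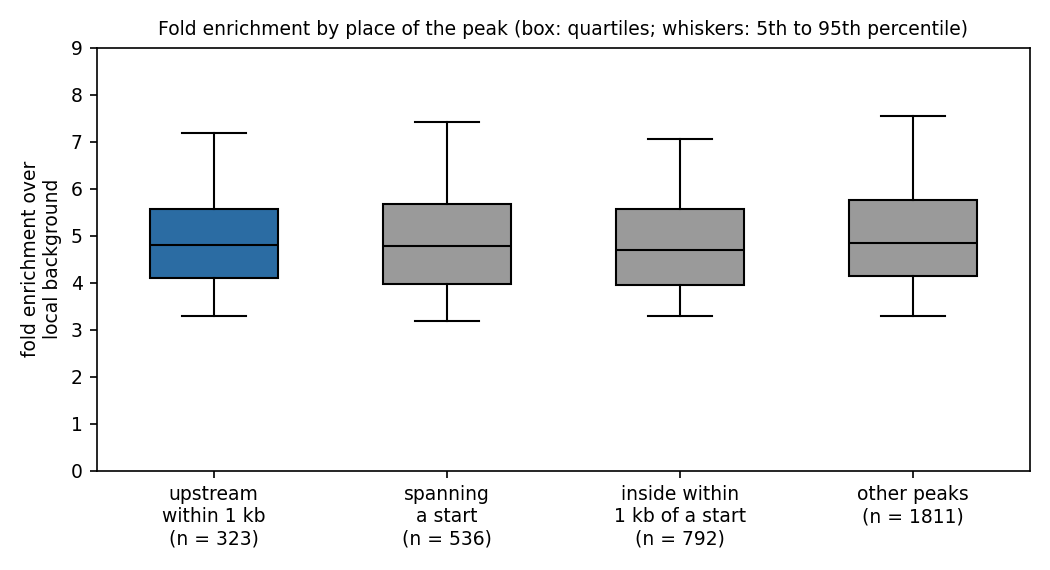
Fold enrichment over local background (y axis) of upstream peaks (blue) and of peaks spanning a start, just inside a start or elsewhere (grey); boxes are quartiles with the median, whiskers the 5th to 95th percentile of peaks. The boxes overlap almost entirely, with medians of 4.79, 4.79 and 4.70 in the first 3 classes.

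The windows of genes with an upstream peak were rich in G, C and CpG. Over 256 windows the median GC content was 67.2% (quartiles 60.9 and 73.3), against 58.7% (47 and 68) over all 35116 RefSeq promoter windows. A median of 28 CpG dinucleotides (21 and 36) was counted, against 14 (4 and 28). Limited to protein-coding genes the medians were 67.8% and 28.5 CpG over 234 windows, against 62.3% and 21 over 22199. Genes with a peak across or just inside the start had much the same content, each with 66% GC and with 26 and 27 CpG, so the content is shared by peaks at starts in this list.

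Motifs of 14 kinds were searched on both strands. GGGCGG was held by 78.9% of windows (73.4 to 83.7), against 45.0% of all windows, and CACGTG, the E-box of MYC and related factors, by 12.9% (9.04 to 17.6), against 7.26%. Shares of CCGGAAG, an ETS site, were 12.5% and 10.3%, and those of TTCCCGC, an E2F site, 10.2% and 6.55%. TGACGTCA, the cyclic AMP response element, was in 4.30% against 1.85%, and GCGCATG, part of the NRF1 site, in 5.86% against 4.43%. CCAAT stood at 37.1% against 34.6%, AAGATGG, a YY1 site, at 7.42% against 5.84%, and AGGGGGC, a piece of the CTCF site, at 22.3% against 14.4%. In the 63 windows with 100 or more bases under the peak, CCAAT and AAGATGG were on the lower side instead, at 22.2% (12.7 to 34.5) and 3.17% (0.387 to 11), while GGGCGG stood at 79.4% and CACGTG at 17.5%. TGACGTCA was in 2.06% of windows with a limit of 500 bp. Genes with a peak across or just inside the start also stood above all windows for GGGCGG (72.8 and 74.6%). So they did for TTCCCGC (13.7 and 10.5%), AGGGGGC (20.8 and 19.2%) and TGACGTCA (3.88 and 3.02%). The same held for GCGCATG (6.39 and 7.79%), AAGATGG (6.16 and 6.68%) and CCGGAAG (14.8 and 16.2%), so all of these are shared by peaks at starts. CACGTG was at 11.4% just inside, but CACGTG (6.85%) and CCAAT (31.5%) were below all windows across the start. Among protein-coding genes alone, GGGCGG was in 79.9% against 56.3% and TTCCCGC in 10.7% against 8.13%.

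The GATA-like core of MECOM's first finger domain, AAGATAA, was in 4 of 256 windows (1.56%, 0.427 to 3.95), against 3.26% of all windows. They were, named after their values were seen, those of ZBED5-AS1, of ZMYND8, a chromatin reader (5.60-fold), of the zinc finger gene ZNF57 (5.21) and of the non-coding LINC02288 (4.67). GATAAG, which can overlap it, was in 3.12% against 6.36%. Genes with a peak across or just inside the start were also low for AAGATAA (0.913 and 1.27%) and GATAAG (3.88 and 3.18%). GAAGATGAG, the site of the second finger domain, was in 1 window (0.391%), against 0.347%. TATAAA and TGANTCA, the TATA box and AP-1 site, stood at 5.08% against 11.5% and 4.69% against 7.71%. Windows of genes with a peak across or just inside the start were low for TATAAA (2.51 and 6.52%) and TGANTCA (3.20 and 3.02%) as well. In the 63 windows with 100 or more bases under the peak, AAGATAA was in 2 (3.17%, 0.387 to 11) and TGANTCA in 5 (7.94%, 2.63 to 17.6), both close to all windows. GATAAG was in 3.17% and TATAAA in 6.35% of those 63, and GAAGATGAG in none of them. Among protein-coding genes alone, ETS turned to the lower side, at 12.4% against 12.8%, while AAGATAA stayed lower, at 0.855% against 2.44%. These windows differ from all windows in GC content, as given above, and the part of base content in the motif shares was not tested. Most windows were not under the peak, so a motif missing from them says nothing of the bound bases.

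**Figure D5:**
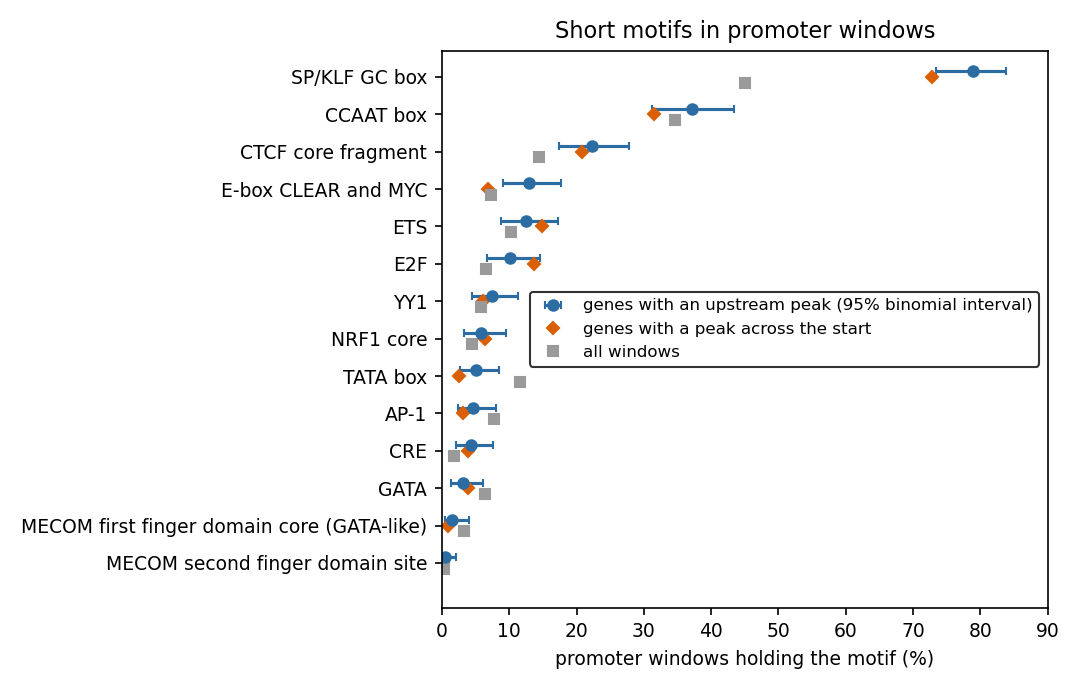
Percent of promoter windows holding each motif (x axis) for genes with an upstream peak (blue, with exact binomial 95% intervals), genes with a peak across the start (orange) and all RefSeq windows (grey). The GC box is at 78.9, 72.8 and 45.0%; the GATA-like core of MECOM is at 1.56, 0.913 and 3.26%.

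Most genes behind the members were protein-coding, at 271 of 323 members; 28 were long non-coding RNAs, 7 microRNAs and 10 had no RefSeq match. Of 20037 protein-coding genes in RefSeq, 270 had an upstream peak, or 1.35%, and gene groups were read against that share without a test. ERK feedback and immediate early genes, chosen with their peaks in this list already known, had upstream peaks at 5 of 33 (15.2%). They were RASA1, EGR1 (an early growth response factor, 5.49-fold, 3.59 to 8.06), SPRED2 (4.98-fold, 2.82 to 8.26), which restrains RAF activation, DUSP5 (4.86-fold, 3.26 to 6.99) and DUSP1 (4.72-fold, 2.93 to 7.23). DUSP5 and DUSP1 are phosphatases that remove activating phosphates from MAP kinases. The 5 gaps, in the order named, were 24, 974, 118, 99 and 800 bp. DUSP1, the lowest of the 5, was named after its value was seen. Peaks at any place were found at 11 of the 33 (33.3%), against 9.93% of all protein-coding genes. The lists below were chosen with earlier results known too. Their any-peak shares were 16.9% for DNA repair, 25.6% for TGF-beta and BMP, 27.8% for blood and leukaemia and 23.3% for stress genes. Those of mast cell, cell cycle and clock genes were 12, 16.4 and 16.7%.

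DNA repair genes had 4 of 77 (5.19%): MBD4, the translesion polymerase REV1 (4.96-fold, 3.22 to 7.34), the related polymerase POLK (3.66) and XRCC4, which acts in end joining (3.49). Like the MBD4 peak, inside IFT122, those of POLK and XRCC4 lay at a gene read the other way. The POLK peak lay inside CERT1, 212 bp past its start, and the XRCC4 peak spanned the start of TMEM167A. No such start lay within 1000 bp of the REV1 peak. TGF-beta and BMP genes had 2 of 39, the receptor BMPR2 (3.38-fold, 2.10 to 5.19) and SMAD7, an inhibitory SMAD (3.16-fold, 1.96 to 4.84), both in the lower range. By RefSeq the BMPR2 peak lay inside the gene, 20 bp past a start. ETV6 alone counted among 36 blood and leukaemia factors, and EIF2AK3, the PERK kinase of the unfolded protein response (3.53-fold), among 30 stress genes. None of the 25 mast cell genes, 67 cell cycle genes or 24 clock genes on the lists used had an upstream peak; at a share of 1.35%, fewer than 1 would be found in each. Members outside the cell cycle list, named after their values were seen, include MKI67, the Ki-67 proliferation antigen (5.44-fold), CDC23, a subunit of the anaphase-promoting complex (4.29), and KIF11, a mitotic kinesin (4.61).

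Families were read from symbol prefixes, so they hold some genes of other function and miss others. Upstream peaks are counted by the deposited annotation, here and in the 1.35% share. By RefSeq, some lay farther than 1000 bp from the nearest start of their gene and would not be members. Such were SLC22A23 (132908 bp), ZNF19 (75911), TRIM74 (36644), HOXD3 (21241) and TMEM232 (12384). RPL10 (8713), EIF4ENIF1 (6850) and CD3EAP (1172) were others. Of the 18 families, 12 were at or below the 1.35% share and 6 above it, on 1 to 5 genes each. KRAB, SCAN and related zinc finger genes had 3 of 608 (0.493%), ZNF318 (5.45-fold), ZNF57 and ZNF19 (5.19), and solute carriers 4 of 398 (1.01%), led by SLC22A23 (5.58-fold) and SLC10A7 (5.04). Genes named TMEM had 5 of 233 (2.15%), led by TMEM131 (5.34-fold). MicroRNA genes, which the protein-coding share does not cover, had 7 of 1902 (0.368%), of which MIR4665 (6.30-fold) and MIR3665 (6.09) were highest. Histone genes had 2 of 94 (2.13%), H2AC15 and H3C15 (3.79), and RNA polymerase and general factor subunits 2 of 96 (2.08%), CD3EAP and POLR2G (4.29). Symbols starting with EIF had 2 of 56 (3.57%), and neither is a translation initiation factor: EIF4ENIF1 (5.65) is a transport protein that binds eIF4E, and EIF2AK3 a kinase. Families with 1 gene each were HOX, with HOXD3 (5.40-fold) of 40 (2.5%), and kinesins, with KIF11 of 39 (2.56%). The others were cytosolic ribosomal proteins, with RPL10 (5.58) of 94, respiratory chain subunits, with ATP5F1A (4.82) of 101, TRIM genes, with TRIM74 (4.35) of 77, and CCDC genes, with CCDC102B (3.86) of 131. No upstream peak was found among mitochondrial ribosomal proteins (77 genes), DEAD and DEAH box helicases (54), the RAB family (74), proteasome subunits (50) or symbols starting with SRSF, SF3A, SF3B, SNRP, PRPF or HNRNP (71). Splicing proteins outside those prefixes had some, such as LSM4 (712 bp, 4.6-fold) and LSM7 (657 bp, 3.51-fold), named after their values were seen. At a share of 1.35%, few members would be found in each family without one. Peaks at any place were found at 16.7% of the DEAD and DEAH box genes, against 9.93% of all protein-coding genes. They were found at 3.9% of mitochondrial ribosomal, 2.7% of RAB, 4% of proteasome and 4.23% of splicing-prefix genes.

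Some further members of known role are given as examples chosen after their values were seen. TLE4 and TLE3, Groucho corepressors, had peaks 192 and 563 bp upstream at 6.37-fold (4.84 to 8.23) and 5.98-fold (4.01 to 8.60). The histone demethylases KDM4C and KDM6A stood at 5.93 and 4.26-fold, and the Polycomb genes PCGF5 and CBX6 at 4.82 and 4.27-fold. Of stress and cytokine response genes, GDF15 was at 5.45-fold, DDIT4 at 5.30 and SOCS1, a brake on JAK-STAT signalling, at 3.69. RefSeq put the GDF15 peak 11817 bp from the nearest start of that gene. The ephrin genes EFNA1 and EFNB2 had 5.70 and 5.01-fold.

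The chemokine receptor gene CXCR4 and the antisense gene INTS6L-AS1 were the only genes with 2 members each. CXCR4, on chromosome 2, had a peak 16 bp upstream at 6.82-fold (4.39 to 10.2) and another at 639 bp with 4.75-fold (2.79 to 7.63). INTS6L-AS1, on the X chromosome, had 5.93-fold (3.69 to 9.10) at 6 bp and 5.67-fold (3.39 to 9.01) at 981 bp. The intervals overlap within each pair. Members lay on every autosome and on X, from 4 on each of chromosomes 20 and 21 to 42 on chromosome 1, and none was among the 3 peaks of Y. Their share of a chromosome's peaks ran from 5.65% on chromosome 7 to 14.4% on chromosome 14, with 9.45% over all annotated peaks.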

How the data were processed

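ChIP-seq peaks of tagged WT MECOM in HEK293T cells were used, 1 library and 1 list. Per the submitters' processing notes, tools included MACS2 2.1.1.20160309.6, ChIPseeker 1.18.0, Bowtie2 2.4.2, HOMER 4.10 and deepTools (versions 3.5.1.0.0, 3.3.2.0.0), with hg38 as the build; roles and order are not stated there. The deposited table has no header, so columns were identified from their values. The authors' fold enrichment is a ratio over local background, and the deposited score equals 10 times the −log10 q, rounded down. The −log10 p and −log10 q are the authors' peak caller's, with a lowest −log10 q of 2.00. Positions, gaps and gene names are the deposited annotation's. The list is tied to the WT group by its name. Total reads, and the library behind the background, were not given in the sources used here.

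Of 3465 lines, 3462 peaks remained after repeated lines of a peak were dropped, keeping the one with a gene symbol. For each peak, fragments and background were solved from the deposited values as whole fragments with (fragments + 1)/(background + 1) equal to the fold and the Poisson tail equal to p, within 0.001. This held for 3459 peaks, and the step was tested on simulated data. Gene starts, types and promoter sequences came from RefSeq on GRCh38.p14, matched by symbol or an older symbol for 313 members, with windows for 258; the other 65 were left out of window counts, and 9 on a chromosome without windows were left out of neighbour counts. No tests between groups were made. Intervals are exact 95% Poisson or binomial.

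Members, lists, families, motifs and tests were chosen with earlier results of these data known. Genes named were the 15 highest, the 5 nearest, the 5 lowest, the 3 widest, those at the limit, genes with 2 members, and up to 4 per group; others are marked as chosen after their values were seen. The list of MECOM partners and chromatin regulators is not reported here. Alternatives were a q of at most 1e-05, limits of 500 and 2000 bp, autosomes, merged neighbours, genes without a symbol, and other overlap rules. Python 3.11.15, pandas 2.3.3, numpy 2.4.6, scipy 1.17.1 and matplotlib 3.10.9 were used.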

Additional observations from a re-analysis of the deposited data

How the results depend on the processing

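The share of annotated peaks that were upstream members, 9.45%, was 7.08% with a limit of 500 bp, 10.7% with 2000 bp and 11.5% with unnamed genes counted. The share reaching the promoter window, 39.1%, was 48.5% at 500 bp and 24.4% when 100 bases were required. The share placed alike by RefSeq, 82.9%, was 75.3% at 500 bp. Judged instead by starts within 100 bp of each other in both annotations, wherever the peak lay, the share was 58.1%. The median fold, 4.79, was 5.55 at a q of at most 1e-05, which removes low peaks by its construction; the other shifts come with the changed limit or counting rule named beside them. The other 29 values, among them all 8 for the neighbour share (30.6 to 39.2%), stayed inside the interval of the reported value or, for the 10 motifs above all windows, within 1.5 times it (7 to 10). Of 42 single motif shares, 36 stayed inside their interval. CACGTG, 12.9%, was 20.3% at the stricter q; with 100 bases covered, CCAAT (37.1%) was 22.2% and AAGATGG (7.42%) 3.17%, both then below all windows. TGACGTCA, 4.30%, was 2.06% at 500 bp, and GAAGATGAG, in 1 window, was in none at the stricter q or with 100 bases covered; the cause was not tested. No paired analysis was possible because WT is a single library with no partner list. Depth limits ranking: members held 18 fragments at the median.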

Other observations

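Some genes with an upstream peak carried another peak of the list as well. This was so for 50 of the 321 genes, and the further peak was mostly inside the gene or across its start. The count was made for genes with a member alone, so whether other genes of the list differ cannot be said. DUSP10, a MAP kinase phosphatase, had 3.32-fold (2.18 to 4.88) upstream and 8.64-fold (5.61 to 12.8) inside the gene, and these intervals do not overlap. WBP1 had 4.64-fold (3.06 to 6.76) upstream and 7.41-fold (4.86 to 10.9) across its start, and MCTP1, a calcium-binding membrane protein, 3.95-fold (2.39 to 6.19) upstream and 7.66-fold (5.21 to 10.9) across it; the intervals overlap in both genes. TLE4 had the higher peak upstream, 6.37-fold (4.84 to 8.23), against 2.42-fold (1.84 to 3.14) inside. These genes were chosen after their values were seen. CDH2, the N-cadherin gene, had 4.67-fold upstream with 2 further peaks, at 5.17 and 3.47-fold. Which peaks belong to which gene rests on the deposited nearest-gene annotation.

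Transfer RNA genes lay within 1000 bp of 4 members (1.24%), those of SACM1L, RNASE4, MAP1LC3B and NCOA7, against 65 of the other 3139 peaks (2.07%). The RNASE4 peak (6.34-fold) overlapped one. No test was made of the difference.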
